A study of Mus musculus with 10 samples.

Results

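The genes described here are 40 genes of DNA replication and cell division, measured by bulk RNA-seq in B16F10 melanoma tumors that lacked *Mir25* (KO) or carried a non-targeting control (NTC). They were chosen by name and not picked by their values, though with earlier results of these data known. Of them, 21 genes act in replication licensing and S phase and 19 act in mitosis, out of 55401 gene rows in the count data. Each of the 40 symbols was found on exactly 1 row, and all 40 passed the filter on low counts, with at least 78 reads in every tumor. *Mcm7* is of particular interest because *Mir25* lies inside it, so the questions were whether *Mcm7* differed from its partner Mcm genes between KO and NTC tumors, and whether S phase genes and mitotic genes behaved alike.

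The melanoma line B16F10 arose in a C57BL/6 mouse, and its tumors were grown here under the skin of adult female C57BL/6J mice. There were 5 KO and 5 NTC tumors, each taken on day 15, and they are named here by group and replicate number (KO 1 to KO 5 and NTC 1 to NTC 5). All 10 mice received Comb, which is GVAX, an irradiated B16 cell vaccine that secretes GM-CSF, on days 1 and 4, together with αPD-1, an antibody that blocks the PD-1 checkpoint receptor, at 10 mg/kg on days 6, 9 and 12. No tumor without Comb is part of the comparison. The KO and NTC lines were made with CRISPR-Cas9, and the labels do not say which guide was used or whether a line was a selected population or a clone. Only the injected tumor cells carried the edit, while the vessels, fibroblasts and leukocytes of the tumor came from the host.

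A cell prepares to copy its DNA by loading the ring-shaped Mcm2-7 helicase onto replication origins, a step called licensing that needs Cdc6 and Cdt1. In S phase, Cdc45 and the GINS complex join the helicase, and the polymerases follow, held to the DNA by the Pcna clamp. E2F factors switch on the genes for these proteins, and the genes for mitosis are switched on later, in G2 and M phase, by the B-Myb and Foxm1 factors. In a tumor these transcripts come mainly from dividing cells, which can be melanoma cells or host cells such as leukocytes.

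*Mir25* lies on the same strand as its host gene. Its hairpin of 84 bases lies at chr5:138165321-138165404 (minus strand, GRCm38), in intron 13 of the reference *Mcm7* transcript, which has 15 exons. The hairpin is 505 bases from the exon upstream and 159 bases from the exon downstream. An exon of 1 of the 10 annotated *Mcm7* transcripts overlaps it. The mature miRNAs of this intron, from RefSeq on GRCm38.p6, are shown because they mark what lies in *Mcm7*, with the seed (bases 2 to 8) in capitals. *Mir93* and *Mir106b* share a seed with each other and not with *Mir25*.
mmu-miR-25-3p: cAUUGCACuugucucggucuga
mmu-miR-93-5p: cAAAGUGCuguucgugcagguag
mmu-miR-106b-5p: uAAAGUGCugacagugcagau

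The study designed 3 guides against mouse *Mir25*, and their sequences are shown because they place the edit with respect to *Mcm7*. The capitals are the 3 genomic bases that follow each guide, where Cas9 from *S. pyogenes* reads an NGG PAM. The bases after the third guide, CAG, are not of that form, but the next base is G, so AGG, which is, begins at that A. All 3 lie within the hairpin in intron 13, at chr5:138165380-138165398 (minus strand), chr5:138165340-138165359 (minus strand) and chr5:138165337-138165355 (plus strand), in the order given, so none reaches an exon of the reference transcript.
mmu-miR-25-sg1: tgttgagaggcggagacttGGG
mmu-miR-25-sg2: cctgggcattgcacttgtctCGG
mmu-miR-25-sg3: ccgagacaagtgcaatgccCAG

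The gene rows of *Mir25*, *Mir93* and *Mir106b* held 0 reads in each of the 10 tumors, which allows up to 3 reads per library, or 0.105 to 0.252 CPM (reads per 1000000 reads on genes). These counts therefore give no check of the knockout, and they do not measure the mature miRNAs.

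The KO libraries held between 23243707 and 27006075 reads on genes, and NTC 2 to NTC 5 between 24145795 and 28682130. NTC 1 stood apart with 11896643 reads on genes, 42.9% of its reads outside annotated genes and 33193 genes with a read, against at most 28.2% and 25435 in the other 9 libraries. Counts of calls and the main values are therefore given over all 10 tumors and again over the 9 tumors without NTC 1. Melanoma genes were present in every tumor, with a summed level of 8 markers between 11685 and 22262 CPM.

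Leukocyte RNA varied more between tumors than the cell cycle genes did. The summed level of 10 pan-leukocyte genes was 1639, 2797, 914, 828 and 3305 CPM in KO 1 to KO 5, and 2681, 529, 999, 512 and 1194 CPM in NTC 1 to NTC 5, with all 10 genes detected in every tumor. The ranges overlapped, and the highest levels were in KO 5, KO 2 and NTC 1. None of the 10 had an unadjusted p under 0.05 over all 10 tumors. Over the 9 tumors without NTC 1, 8 of them were higher in KO by that measure, beside 12% of all genes. In bulk tumors, fewer cells of a type and less RNA per cell cannot be told apart.

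No cell cycle gene passed the test for a difference between KO and NTC tumors. With edgeR's quasi-likelihood test, 0 of 40 passed the call, an absolute log2 fold change above 1 with a Benjamini-Hochberg adjusted p under 0.05, and 0 of 40 had an unadjusted p under 0.05. The background was low: 3 of 15821 genes tested were called (0.019%), and 8.85% had an unadjusted p under 0.05. Without NTC 1, 0 of 40 were called and 0 of 40 had an unadjusted p under 0.05, against 0.106% and 20.1% of 16078 genes. DESeq2 also called 0 of 40, with 0 at an unadjusted p under 0.05, in either set of tumors.

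The differences were small, and most of them pointed down. Over all 10 tumors, log2 fold changes (KO against NTC) ran from -0.35 to 0.30, and 33 of the 40 were below 0, beside 48.7% of all genes tested. The median was -0.08 for the S phase genes and -0.11 for the mitotic genes, beside 0.01 for all genes. Without NTC 1, 38 of 40 were below 0, with medians of -0.21 and -0.24, beside -0.02 for all genes and 51.9% of all genes below 0. The genes went up and down together across tumors, so they are not 40 separate observations.

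The precision was enough to set a bound. Standard errors ran from 0.14 to 0.27, and the 95% intervals of all 40 genes lay within a log2 fold change of 1 in either direction over all 10 tumors. The same held for 39 of 40 over the 9 tumors, the exception being *Bub1*, whose interval reached -1.09. These intervals do not show that the groups were alike.

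**Figure D1:**
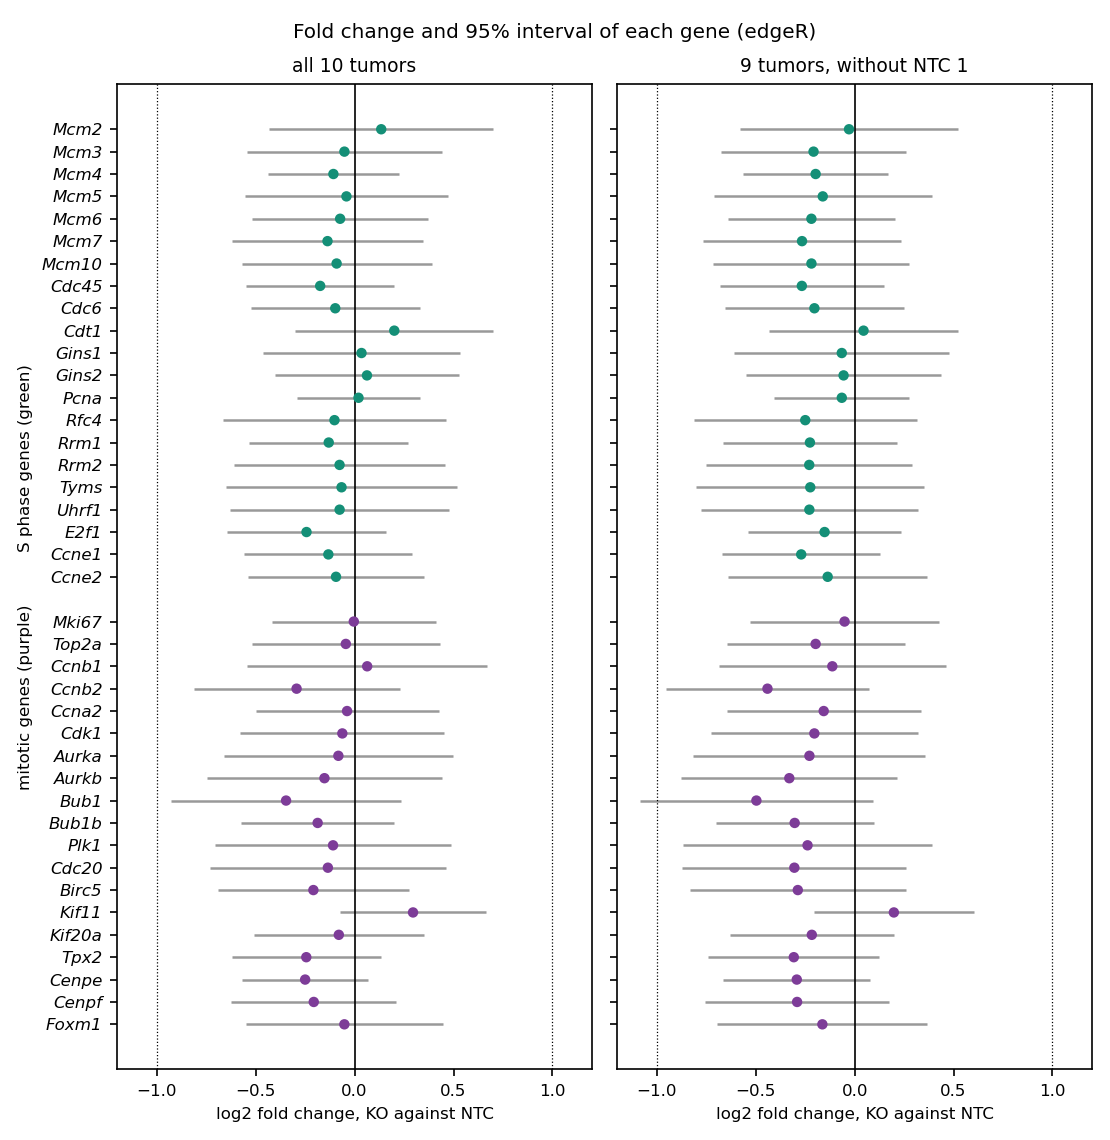
Log2 fold change of each gene (points, KO against NTC, edgeR) with its 95% interval (lines), over all 10 tumors on the left and over the 9 tumors without NTC 1 on the right. Dotted lines mark log2 fold changes of -1 and 1. Every interval crosses 0 in both panels, and all points but that of *E2f1* move to the left without NTC 1.

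The spread between tumors of 1 group was wider than the gap between groups. The summed level of the 21 S phase genes was 1632, 2080, 2516, 2754 and 1481 CPM in KO 1 to KO 5, and 1555, 2799, 2085, 2355 and 2003 CPM in NTC 1 to NTC 5. The KO mean was 2093 ± 548 CPM (SD, n = 5) and the NTC mean 2159 ± 459 CPM (n = 5). KO 4 thus had 1.86 times the level of KO 5, whereas the NTC mean was 1.03 times the KO mean, or 1.10 times without NTC 1. The ranges overlapped almost completely.

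The mitotic genes followed the same tumors. Their summed level was 2042, 2279, 2790, 3421 and 1719 CPM in KO 1 to KO 5, and 1960, 3225, 2622, 2900 and 2250 CPM in NTC 1 to NTC 5. The KO mean was 2450 ± 669 CPM and the NTC mean 2591 ± 503 CPM (SD, n = 5 each). The NTC mean was 1.06 times the KO mean, or 1.12 times without NTC 1, against a 1.99-fold range within KO tumors, and KO 4 was the highest of all 10.

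Gene by gene, the same few tumors were at the extremes. KO 5 was the lowest tumor for 25 of the 40 genes, NTC 1 for 10 and KO 1 for 3, which together make 38 of 40. NTC 2 was the highest for 20 genes and KO 4 for 16. In 28 of 40 genes the 3 lowest tumors were KO 1, KO 5 and NTC 1, in whatever order. Levels of a gene differed between its highest and lowest tumor by 1.65-fold (*Pcna*) to 2.81-fold (*Bub1*), with a median of 2.08-fold. The KO and NTC values overlapped for each of the 40 genes, over 10 tumors (background of genes without overlap, 2.34%) and over 9 (6.3%).

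**Figure D2:**
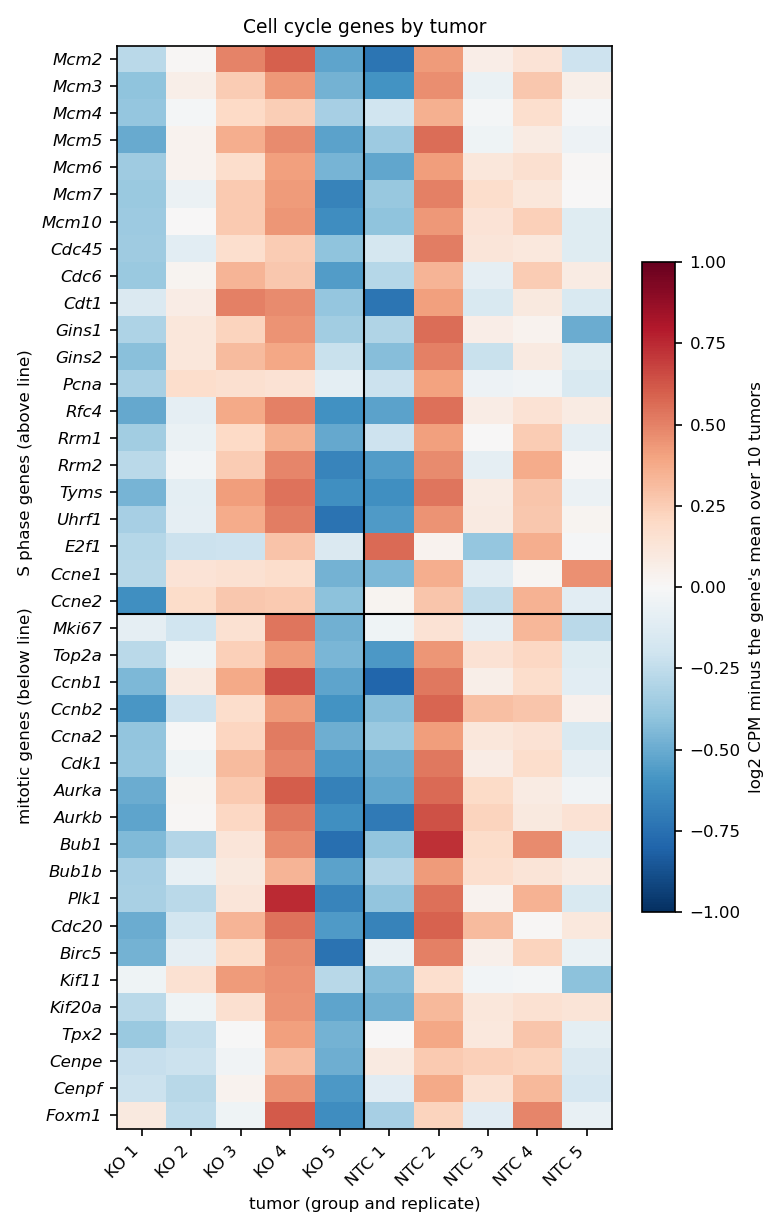
Log2 CPM of each gene (rows) in each tumor (columns), as the difference from the gene's mean over 10 tumors, from -1 (blue) to 1 (red). The horizontal line parts the 21 S phase genes from the 19 mitotic genes and the vertical line parts KO from NTC. KO 1, KO 5 and NTC 1 are low and KO 4 and NTC 2 are high over most rows, with *E2f1* in NTC 1 as an exception.

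The tumors with little cell cycle RNA were those with many leukocyte transcripts. KO 5, NTC 1 and KO 1, the 3 lowest tumors in both sums, were among the 4 with the highest pan-leukocyte sum, whereas KO 2, with the next highest pan-leukocyte sum after KO 5, lay above NTC 5 in both. NTC 2, KO 4, KO 3 and NTC 4, the 4 highest tumors in both sums, were the 4 with the lowest pan-leukocyte sum. The melanoma cell markers ran the other way, with 12227 CPM in KO 5 and 11685 CPM in NTC 1 against 22262 CPM in NTC 2. The 4 fibroblast genes moved like the leukocyte genes, with 2333 CPM in KO 5 and 2089 CPM in NTC 1 and 27.6 CPM in NTC 2. KO 4, the tumor highest in mitotic genes, also held 150 CPM of 4 skeletal muscle genes, against 27.8 CPM in KO 3 and at most 3.46 CPM in the other 8 tumors, where 1 of the 4 genes was at 0 in a KO tumor and 3 of 4 in an NTC tumor. The part of these other cells in the levels of the 40 genes was not tested in sorted cells.

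**Figure D3:**
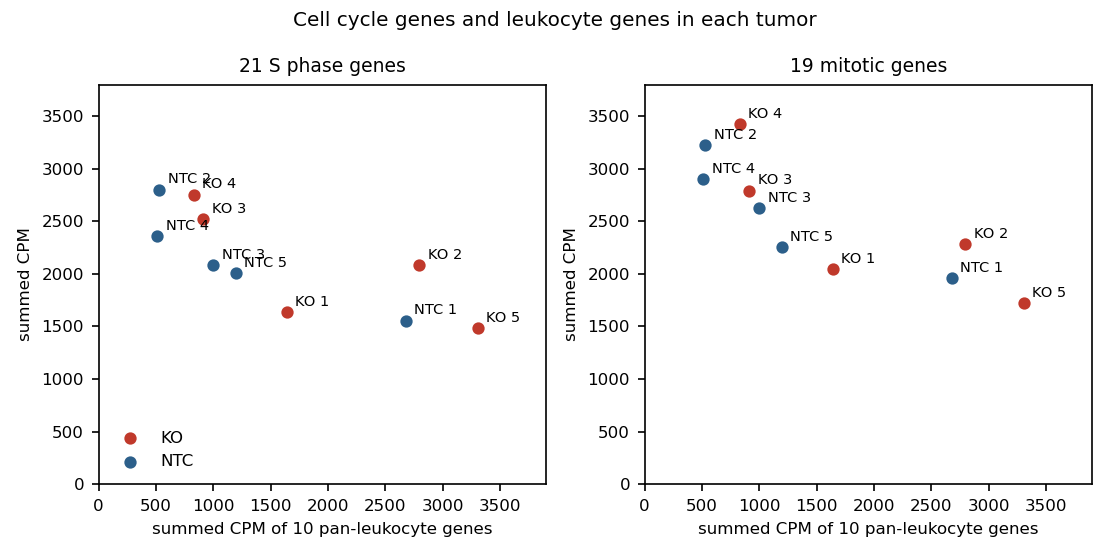
Summed CPM of the 21 S phase genes (left) and 19 mitotic genes (right) on the vertical axis against the summed CPM of 10 pan-leukocyte genes on the horizontal axis, 1 point per tumor. KO and NTC tumors lie along the same band, from NTC 2 and KO 4 at the upper left to KO 5 at the lower right.

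The sign of the small differences depended on what the tumors were matched for. With the pan-leukocyte score as a covariate, 4 of 40 genes were below 0 over all 10 tumors, and the medians became 0.18 (S phase) and 0.17 (mitotic). With the melanoma cell score as a covariate, 18 of 40 were below 0, with medians of 0.02 and 0.00. Without NTC 1, 3 and 8 of 40 were below 0, with medians of 0.18 and 0.17, and of 0.13 and 0.09. None of the 40 genes reached an adjusted p under 0.05 in these fits, and their lowest was 0.086 by edgeR. Of all genes, 17 were called with the leukocyte covariate and 26 with the melanoma covariate over all 10 tumors, against 3 without a covariate. Without NTC 1 these were 11 and 1, against 17. *Cdt1* and *Kif11* had an unadjusted p under 0.05 with either covariate and in either set of tumors. The share of all genes at that p in these fits is not given here. Each score is itself measured on these tumors and has its own error.

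Set against the melanoma cell markers, a ratio chosen after seeing the data, the cell cycle genes were not lower in KO. S phase reads made up 10.9, 13.4, 12.4, 15.5 and 12.1% of the reads on the 8 melanoma markers in KO 1 to KO 5, and 13.3, 12.6, 10.4, 11.6 and 10.1% in NTC 1 to NTC 5. Mitotic reads made up 13.7, 14.6, 13.8, 19.2 and 14.1% in KO and 16.8, 14.5, 13.1, 14.3 and 11.4% in NTC. The groups overlapped in both ratios. The means were 12.9 ± 1.7% (KO) and 11.6 ± 1.4% (NTC) for S phase genes, and 15.1 ± 2.3% and 14.0 ± 2.0% for mitotic genes (SD, n = 5 each). NTC 1, among the lowest in CPM, was the second highest of the 10 tumors in the mitotic ratio.

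This scale moved the other genes as well. When libraries were scaled on the melanoma markers, the median log2 fold change of all genes tested became 0.20 over all 10 tumors and 0.40 without NTC 1. The S phase median became 0.11 (0.16 without NTC 1) and the mitotic median 0.08 (0.12). Relative to all genes, the S phase genes were then at -0.08 and the mitotic genes at -0.11 over all 10 tumors, and at -0.24 and -0.27 without NTC 1, close to their places under the main scaling. Under this scaling the sign of the cell cycle genes turned, and their medians stayed below that of all genes.

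Among the licensing genes, *Mcm7* was compared with its partners first. *Mcm7* (chr5:138164583-138172422, minus strand) measured 81.4, 101, 126, 142 and 66.4 CPM in KO 1 to KO 5, and 80.7, 149, 119, 114 and 105 CPM in NTC 1 to NTC 5. The lowest and the second highest of the 10 values were both KO tumors, and the groups overlapped. Its log2 fold change was -0.14 ± 0.22 (SE; 95% interval -0.62 to 0.35; adjusted p = 0.875 by edgeR), and -0.27 ± 0.23 (adjusted p = 0.517) over the 9 tumors. Of its exonic bases, 12.6% are shared with other annotated genes, mostly on the opposite strand, and the strand setting of the counting is not given in the sources used here.

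The other 5 subunits gave log2 fold changes of similar size. Over all 10 tumors these were 0.13 ± 0.26 for *Mcm2*, -0.05 ± 0.22 for *Mcm3*, -0.11 ± 0.15 for *Mcm4*, -0.04 ± 0.23 for *Mcm5* and -0.07 ± 0.20 for *Mcm6* (SE, adjusted p from 0.858 to 0.966 by edgeR). Without NTC 1 they were -0.03, -0.21, -0.20, -0.16 and -0.22 in the same order. *Mcm7* thus had the lowest value of the 6 in both sets, by less than its own standard error from *Mcm4* over all 10 tumors.

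In each of the 6 subunits the 3 lowest tumors were KO 1, KO 5 and NTC 1, in varying order. *Mcm2* was 192, 233, 326, 350 and 160 CPM in KO 1 to KO 5 and 140, 311, 243, 254 and 201 CPM in NTC 1 to NTC 5. *Mcm6* was 158, 207, 229, 268 and 147 CPM in KO and 141, 270, 219, 226 and 204 CPM in NTC. NTC 1 was the lowest tumor for both of these genes. *Mcm3* ranged from 74.5 to 155 CPM, *Mcm4* from 71.8 to 120 CPM and *Mcm5* from 84.2 to 180 CPM, with NTC 2 the highest in each.

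Per length of annotated exon, the mean levels of the 6 subunits, which form a ring with 1 copy of each, lay between 23.3 and 45.4 CPM per kb. Mean levels in KO and NTC were 36.2 ± 11.9 and 33.0 ± 9.17 CPM per kb for *Mcm2*, 43.2 ± 10.8 and 45.4 ± 9.98 for *Mcm6*, and 23.3 ± 7.0 and 25.6 ± 5.56 for *Mcm7* (SD, n = 5 each). *Mcm3*, *Mcm4* and *Mcm5* fell between 25.5 and 32.0 CPM per kb in both groups. On this scale *Mcm7* was the lowest and *Mcm6* the highest of the 6 in each group, while neighbours such as *Mcm7* and *Mcm4* did not differ beyond their SD. The lengths join the exons of all annotated transcripts, and were 6956 bases for *Mcm2*, 4666 for *Mcm6* and 4426 for *Mcm7*. In CPM *Mcm2* was the highest, at 252 in KO and 230 in NTC, so the order depends on these lengths.

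A ratio within a tumor removes the shared rise and fall. The log2 CPM of *Mcm7* minus the mean of *Mcm2* to *Mcm6* was -0.43, -0.53, -0.48, -0.44 and -0.64 in KO 1 to KO 5, and -0.35, -0.39, -0.28, -0.49 and -0.40 in NTC 1 to NTC 5. KO tumors were lower on average, at -0.51 ± 0.08 against -0.38 ± 0.08 (SD, n = 5 each), a difference of -0.12, or -0.11 without NTC 1. The groups overlapped through NTC 4, which was lower than 3 of the KO tumors. No p is given for this ratio, since *Mcm7* was singled out with earlier results known.

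*Mcm7* was not the subunit whose share differed most. The same ratio for *Mcm2* was 1.05, 0.92, 1.16, 1.12 and 0.88 in KO 1 to KO 5, and 0.60, 0.89, 0.96, 0.89 and 0.71 in NTC 1 to NTC 5. Its difference was 0.22 (0.16 without NTC 1), in the opposite direction and larger than that of *Mcm7*, with the groups again overlapping. For *Mcm3*, *Mcm4*, *Mcm5* and *Mcm6* the differences were 0.01, -0.07, -0.01 and -0.02. As a ratio within a tumor, a lower share of 1 subunit raises the others by construction.

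**Figure D4:**
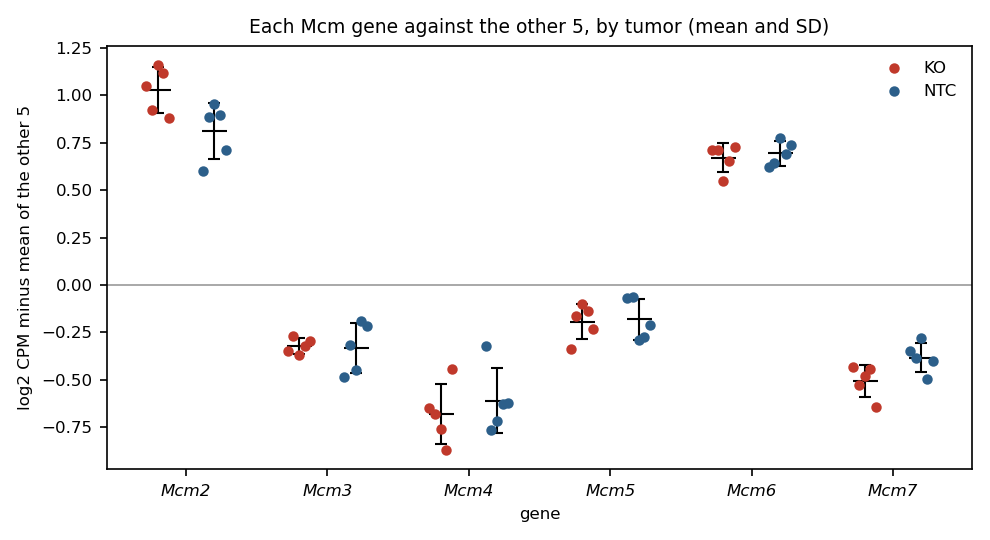
Log2 CPM of each Mcm2-7 gene minus the mean of the other 5 in the same tumor, for 5 KO (red) and 5 NTC (blue) tumors, with the group mean (bar) and SD (whiskers). KO and NTC points overlap for every gene, and the group means differ most for *Mcm2* and next for *Mcm7*.

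The loading factors of the helicase differed in the direction of their small changes. *Cdt1*, which brings Mcm2-7 to origins and is destroyed in S phase, was 46.0, 53.7, 72.1, 70.6 and 39.0 CPM in KO 1 to KO 5, and 30.7, 67.7, 45.8, 54.4 and 45.8 CPM in NTC 1 to NTC 5. The log2 fold change of 0.20 ± 0.23 (SE, adjusted p = 0.822 by edgeR) was the highest of the S phase genes, and it was 0.04 ± 0.21 over the 9 tumors (adjusted p = 0.920). NTC 1 was the lowest of the 10 tumors. *Cdc6*, the ATPase that loads the helicase with Cdt1, was at -0.10 (18.3 to 34.1 CPM), and *Mcm10*, which helps to start the helicase, was at -0.09 (32.2 to 67.0 CPM).

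The helicase activators and the fork factors were as flat. *Cdc45* was at -0.17 on the log2 scale, with 24.5 to 46.1 CPM. *Gins1* and *Gins2* were at 0.03 and 0.06, with 9.64 to 20.1 CPM, although 67.3% of the exonic bases of *Gins2* are shared with *Gse1* on the opposite strand, so its reads are uncertain. *Pcna*, the sliding clamp, was at 0.02 with the smallest ratio of highest to lowest tumor among the 40 genes (177 to 292 CPM), and *Rfc4*, a subunit of the clamp loader, was at -0.10. None of these 5 genes had an unadjusted p under 0.05.

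Nucleotide supply and chromatin copying gave the same picture. *Rrm1* and *Rrm2*, the subunits of ribonucleotide reductase, were at -0.13 and -0.08, and *Tyms*, thymidylate synthase, was at -0.07. *Uhrf1*, which directs DNA methylation to the new strand, was at -0.08, with 123 to 293 CPM over the 10 tumors. Over the 9 tumors these 4 genes lay between -0.23 and -0.22.

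The G1/S regulators included the gene most out of step with the rest. *E2f1*, the transcription factor that opens S phase, was 21.03, 22.0, 22.2, 31.3 and 23.2 CPM in KO 1 to KO 5, and 37.9, 26.3, 19.6, 33.0 and 25.4 CPM in NTC 1 to NTC 5. It was highest in NTC 1, where most other members were low, and its log2 fold change of -0.24 ± 0.18 (SE, adjusted p = 0.731 by edgeR) was the lowest of the S phase genes over all 10 tumors and -0.15 ± 0.17 over the 9. *Ccne1*, cyclin E1, was 28.2, 37.6, 38.0, 38.7 and 24.6 CPM in KO and 25.1, 44.1, 31.8, 34.7 and 47.1 CPM in NTC. With -0.13 ± 0.19 over all 10 tumors and -0.27 ± 0.18 over the 9 (adjusted p = 0.863 and 0.411 by edgeR), it was the lowest of the S phase genes in the second set. *Ccne2* was at -0.09.

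Among the mitotic genes, the kinesin *Kif11* was the highest. *Kif11*, the motor that pushes the spindle poles apart, was 67.4, 77.3, 93.0, 95.5 and 57.4 CPM in KO 1 to KO 5, and 51.5, 77.9, 68.3, 68.3 and 52.1 CPM in NTC 1 to NTC 5. Its log2 fold change was 0.30 ± 0.17 (SE, 95% interval -0.08 to 0.67), with an unadjusted p of 0.107 and an adjusted p of 0.643 by edgeR, and 0.20 ± 0.18 over the 9 tumors (adjusted p = 0.551). It was above 0 in every fit that left out 1 tumor, between 0.20 and 0.39. The KO and NTC values overlapped, and KO 5 was lower than 3 NTC tumors.

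*Bub1* was the lowest. *Bub1*, a kinase of the spindle checkpoint, was 62.5, 69.3, 92.4, 118 and 50.3 CPM in KO 1 to KO 5, and 64.4, 141, 96.5, 118 and 78.7 CPM in NTC 1 to NTC 5. The difference was -0.35 ± 0.26 on the log2 scale (SE, adjusted p = 0.734 by edgeR), and -0.50 ± 0.26 over the 9 tumors (adjusted p = 0.318). *Bub1b*, its partner in the checkpoint, was at -0.19, and *Cdc20*, the activator of the anaphase-promoting complex that the checkpoint restrains, was at -0.14. KO 4 lay among the upper NTC values in all 3 genes.

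**Figure D5:**
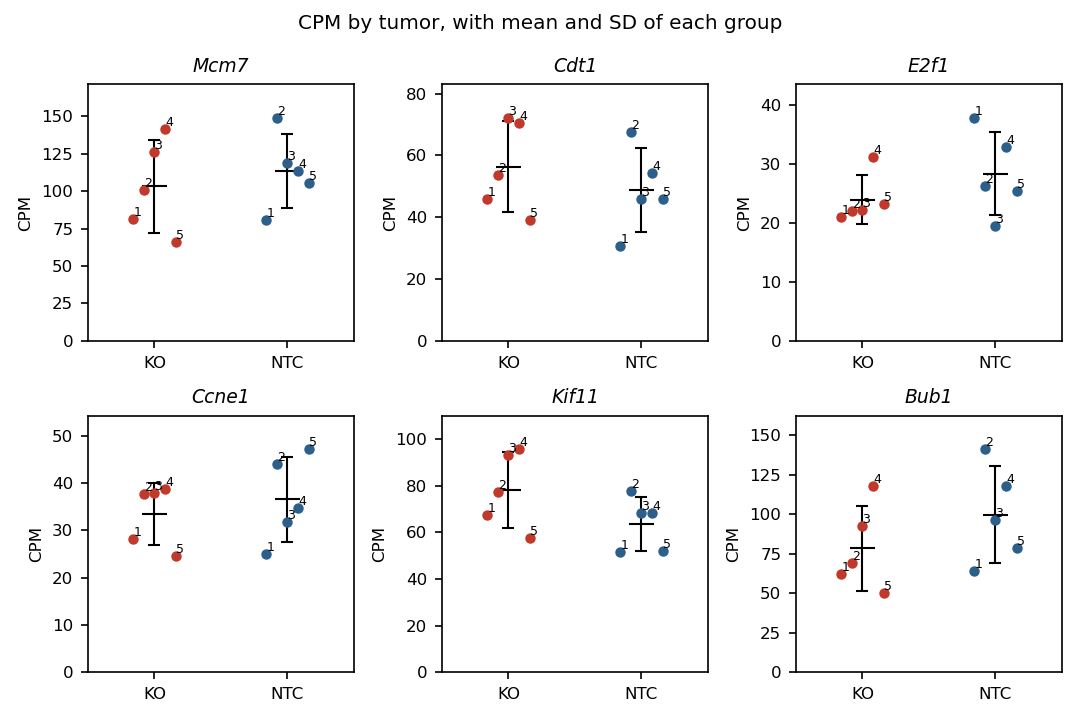
CPM of *Mcm7* and of the S phase and mitotic genes with the highest or lowest fold change, 1 point per tumor with its replicate number, with mean (bar) and SD (whiskers) of 5 KO and 5 NTC tumors. The groups overlap in every panel.

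Several kinetochore and spindle genes were among the lower values. *Cenpe*, a kinetochore motor, was at -0.25 ± 0.14 (SE, unadjusted p = 0.110, adjusted p = 0.645 by edgeR), with 75.0 to 130 CPM in KO tumors and 95.5 to 126 CPM in NTC tumors. *Tpx2*, which builds spindle microtubules with Aurora A, was at -0.24, and *Cenpf*, another kinetochore protein, was at -0.21. Without NTC 1 these 3 were between -0.31 and -0.29. KO 4 was the highest tumor for each, and without it the 3 genes had unadjusted p values under 0.05 over the other 9 tumors. The lowest adjusted p among the 40 genes was then 0.300 by edgeR. The share of all genes with an unadjusted p under 0.05 in that fit is not given here.

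The mitotic cyclins and kinases covered the range in between. *Ccnb1* and *Ccnb2*, the B cyclins that drive entry into mitosis, were at 0.06 and -0.29, *Ccna2* was at -0.04, and their kinase *Cdk1* was at -0.06. *Aurka*, *Aurkb* and *Plk1*, the main mitotic kinases beside it, were at -0.08, -0.15 and -0.11. *Birc5*, survivin, which holds Aurora B at the centromere, was at -0.21. None of these 8 genes had an unadjusted p under 0.05 in either set of tumors.

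The common proliferation markers were close to 0 over all 10 tumors. *Mki67*, the gene of the Ki-67 antigen, was 429, 398, 507, 663 and 328 CPM in KO 1 to KO 5, and 442, 504, 430, 576 and 380 CPM in NTC 1 to NTC 5. KO and NTC differed by 0.00 ± 0.19 on the log2 scale over all 10 tumors and -0.05 ± 0.21 over the 9 (SE), with adjusted p of 0.996 and 0.910 by edgeR. *Top2a*, which untangles sister chromatids, was at -0.04, with 441 to 889 CPM. *Foxm1*, the factor that drives the G2 and M genes, was at -0.05, and *Kif20a*, a kinesin of cytokinesis that shares 29.3% of its exonic bases with *Cdc23*, was at -0.08. Over the 9 tumors *Top2a*, *Foxm1* and *Kif20a* were at -0.20, -0.16 and -0.22.

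The balance between S phase and mitotic genes overlapped between the groups. The mean log2 CPM of the S phase genes minus that of the mitotic genes was -0.49, -0.33, -0.37, -0.57 and -0.36 in KO 1 to KO 5, and -0.45, -0.47, -0.60, -0.49 and -0.42 in NTC 1 to NTC 5. The means were -0.42 ± 0.10 (KO) and -0.49 ± 0.07 (NTC) (SD, n = 5 each), a difference of 0.06, or 0.07 without NTC 1. Each of these differences was below the SD of KO and of NTC tumors, and the groups overlapped.

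The promoters of these genes are shown because the genes went up and down together, and because the E2F and G2/M programs differ in the motifs they use. The printed stretches end at the base before the RefSeq start site (GRCm38.p6), and the capitals mark matches to an E2F site, to CHR, the element read by the B-Myb and DREAM complexes, or to a CCAAT box, read by NF-Y. *Mcm7*, *Mcm6* and *Mcm5* are shown as S phase genes with an E2F match, which 7 of the 17 with a promoter entry hold. *Mcm2* holds a CHR match and no E2F match. A second *Mcm7* entry, chr5:138171217-138171516, holds no E2F match either. The printed *Mcm7* stretch is at chr5:138171884-138172063 (minus strand), *Mcm6* at chr1:128359706-128359835 (minus strand) and *Mcm5* at chr8:75109339-75109508 (plus strand).
Mcm7: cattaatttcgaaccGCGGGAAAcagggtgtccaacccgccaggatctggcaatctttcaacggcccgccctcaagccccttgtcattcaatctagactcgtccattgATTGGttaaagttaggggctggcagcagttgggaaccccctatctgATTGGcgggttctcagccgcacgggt
Mcm6: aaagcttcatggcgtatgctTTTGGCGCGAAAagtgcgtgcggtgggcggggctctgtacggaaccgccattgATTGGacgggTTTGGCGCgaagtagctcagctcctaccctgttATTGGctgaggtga
Mcm5: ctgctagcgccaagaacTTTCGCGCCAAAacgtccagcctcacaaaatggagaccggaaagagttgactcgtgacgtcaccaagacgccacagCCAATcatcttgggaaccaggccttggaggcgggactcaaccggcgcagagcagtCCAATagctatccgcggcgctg

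The mitotic stretches hold CHR matches in their place. *Cdk1* is at chr10:69352913-69353052 (minus strand), *Cdc20* at chr4:118437344-118437413 (minus strand) and *Kif11* at chr19:37376322-37376381 (plus strand). *Cdk1* also holds an E2F match, the only mitotic member that does among those with a promoter entry.
Cdk1: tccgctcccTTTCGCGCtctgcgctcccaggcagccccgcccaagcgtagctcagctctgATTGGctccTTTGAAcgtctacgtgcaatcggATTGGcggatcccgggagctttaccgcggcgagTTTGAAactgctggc
Cdc20: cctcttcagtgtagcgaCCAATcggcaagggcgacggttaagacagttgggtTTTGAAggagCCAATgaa
Kif11: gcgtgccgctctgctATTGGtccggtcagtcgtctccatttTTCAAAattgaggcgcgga

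Of the 40 genes, 31 had a promoter entry, 17 S phase and 14 mitotic, covering 250 bases before to 50 bases after the start site. The words searched on both strands were TTTCCCGC, TTTCGCGC, TTTGCCGC and TTTGGCGC for E2F, TTTGAA for CHR and CCAAT, and E2F words on opposite strands can overlap each other. An E2F word was present in 7 of 17 S phase genes (41.2%) and 1 of 14 mitotic genes (7.14%), beside 2.61% of all 27025 genes with an entry. CHR was present in 2 of 17 S phase genes (11.8%) and 10 of 14 mitotic genes (71.4%), beside 20.2% of all genes. CCAAT was present in 11 of 17 (64.7%) and 13 of 14 (92.9%), beside 41.1%. These are matches of letters, not measured binding.

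The wider pathway, in 9 lists of 199 genes that hold no member, gave few differences. Of the 186 that were tested over all 10 tumors, 8 were higher and 4 lower in KO at an unadjusted p under 0.05, which is 4.30% and 2.15% beside 3.99% and 4.85% of all genes. Over the 9 tumors it was 10 and 5 of 187, which is 5.35% and 2.67% beside 12% and 8.1%. None had an adjusted p under 0.05 by edgeR in either set. DESeq2 gave 1 such gene over all 10 tumors, the p53 target *Trp53inp1* (adjusted p = 0.023), and it was also under 0.05 over the 9 (0.0083). Without NTC 1, DESeq2 gave 5 more, the p53 targets *Ccng1*, *Eda2r* and *Plk2* and also *Cdkn1b* and *Rbl2* (adjusted p from 0.013 to 0.049). *Eda2r* alone among the 6 passed the call there, at a log2 fold change of 2.38 ± 0.80 (SE, adjusted p = 0.043 by DESeq2). Its level was near the floor, at 0.12 to 6.81 CPM, with the highest in KO 5 and as few as 3 reads in a tumor. By the same call, DESeq2 passed 96 of all 15821 genes over all 10 tumors and 636 of all 16078 over the 9. The share of all genes with a DESeq2 adjusted p under 0.05 and no fold threshold is not given here. The count of 6 genes therefore has no like background beside it. The lists were chosen with earlier results of these data known.

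The replication lists resembled the S phase genes. Of 12 origin licensing genes, 0 were higher and 1 lower at an unadjusted p under 0.05, beside 3.99% and 4.85% of all genes. Their median log2 fold change was -0.09, beside 0.01 for all genes. They ran from *Gmnn*, geminin, the inhibitor of Cdt1, at 0.18 to *Dbf4*, the activator of the Cdc7 kinase, at -0.19, and the lower gene was *Orc3*, a subunit of the origin recognition complex. *Orc3* was again the 1 lower gene over the 9 tumors, with a median of -0.15 and 11 of 12 below 0, beside 51.9% of all genes. Of 32 replication fork and polymerase genes, 0 were higher and 0 lower, with a median of -0.06. They ran from *Hells*, a chromatin remodeler, at 0.27 to *Chaf1b*, a histone chaperone, at -0.44. Without NTC 1 the median was -0.17, with 30 of 32 below 0 beside 51.9% of all genes. *Chaf1b* was then the 1 lower gene, at -0.56 (unadjusted p = 0.043 by edgeR). In that set of tumors, 12% of all genes were higher and 8.1% lower.

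The mitotic lists resembled the mitotic genes. Of 19 spindle checkpoint and kinetochore genes, 0 were higher and 0 lower, with a median of -0.14, from *Incenp* at 0.01 to the kinase *Ttk* at -0.29. Of 30 kinesin, condensin and spindle genes, 0 were higher and 1 lower, with a median of -0.15, from the condensin subunit *Ncapg2* at 0.13 to the kinesin *Kif15* at -0.51. Beside both lists, 3.99% of all genes were higher and 4.85% lower at an unadjusted p under 0.05. *Kif15*, which can share the work of *Kif11* at the spindle, was 49.0, 53.2, 52.7, 83.4 and 38.5 CPM in KO 1 to KO 5, and 65.3, 94.4, 77.6, 94.5 and 63.0 CPM in NTC 1 to NTC 5. Its log2 fold change was -0.51 ± 0.20 (SE, unadjusted p = 0.029, adjusted p = 0.497 by edgeR). The other 4 KO tumors were below all NTC tumors, while KO 4 lay within the NTC range. Without NTC 1 the checkpoint list had a median of -0.24, with 19 of 19 below 0 and 0 higher or lower at an unadjusted p under 0.05. The kinesin list then had a median of -0.25, with 28 of 30 below 0 and *Kif15* again the 1 lower gene. Of all genes, 51.9% were below 0 in that set of tumors, with a median of -0.02. At an unadjusted p under 0.05, 12% were higher and 8.1% lower.

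The brakes of the G1/S step gave some of the lower unadjusted p values of the pathway. Of 8 CDK inhibitors, 6 were tested, and 0 were higher and 2 lower over all 10 tumors, beside 3.99% and 4.85% of all genes. *Cdkn1b*, p27, was 109, 109, 128, 133 and 101 CPM in KO 1 to KO 5, and 113, 157, 165, 157 and 131 CPM in NTC 1 to NTC 5. Its log2 fold change was -0.32 ± 0.12 (SE, unadjusted p = 0.027, adjusted p = 0.492 by edgeR), and -0.42 ± 0.12 over the 9 tumors (unadjusted p = 0.005, adjusted p = 0.148). The groups met at NTC 1 and NTC 5, which lay within the KO range. *Cdkn2d* was likewise at -0.32 (adjusted p = 0.511 by edgeR), while *Cdkn1c* had the highest value of the list, 1.58 ± 0.93, at 0.00 to 2.89 CPM. *Cdkn1a*, p21, was at 0.11. Without NTC 1, 1 of the 6 was higher (*Cdkn1c*, 2.15 ± 0.88) and 2 were lower (*Cdkn1b* and *Cdkn2d*), with a median of -0.34. Of all genes, 12% were then higher and 8.1% lower.

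The list of RB, E2F and MYC regulators also held low unadjusted p values. Of 16 tested, 2 were higher (*Rbl2* and *Tfdp2*) and 0 lower over all 10 tumors, beside 3.99% and 4.85% of all genes, with a median of -0.02. *Rbl2*, the p130 pocket protein that holds E2F genes silent in resting cells, was 75.7, 83.3, 71.5, 66.4 and 90.7 CPM in KO 1 to KO 5, and 67.9, 55.5, 57.5, 59.3 and 65.7 CPM in NTC 1 to NTC 5. It was 0.34 ± 0.10 on the log2 scale (SE, unadjusted p = 0.007, adjusted p = 0.305 by edgeR), and KO 4 was the only KO tumor below an NTC tumor, NTC 1. Without NTC 1 the groups did not overlap, as for 6.3% of all genes, and the adjusted p was 0.147. *E2f8* was the lowest at -0.18. Of 9 G1 cyclins, CDKs and phosphatases, 1 was higher, the D cyclin *Ccnd3* at 0.25 ± 0.11 (adjusted p = 0.542 by edgeR), and 0 were lower, the lowest being *Cdc25c* at -0.33, with a median of -0.04. Over the 9 tumors 2 RB, E2F and MYC regulators were higher (*Rb1* and *Rbl2*) and 0 lower, with a median of -0.09. No G1 gene was then higher or lower, with a median of -0.14. Of all genes, 12% were higher and 8.1% lower.

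The p53 targets ran against the cell cycle genes across tumors. Their summed level was 741, 757, 661, 576 and 947 CPM in KO 1 to KO 5, and 793, 499, 563, 481 and 519 CPM in NTC 1 to NTC 5, so that KO 5 and NTC 1 were the highest tumors. Of 13 tested, 2 were higher (*Ccng1* and *Trp53inp1*) and 0 lower, beside 3.99% and 4.85% of all genes. All 13 were above 0, while 48.7% of all genes were below 0. The median was 0.23 beside 0.01 for all genes, from *Eda2r* at 1.43 ± 0.93 to *Sesn2* at 0.10. Over the 9 tumors 5 of 13 were higher (*Btg2*, *Ccng1*, *Eda2r*, *Plk2* and *Trp53inp1*), beside 12% of all genes. The median was then 0.36 beside -0.02 for all genes. *Eda2r* was at 0.64 without KO 5 and at 2.31 without NTC 1. With the leukocyte covariate over all 10 tumors, *Eda2r* was at 0.25 and *Sesn2* at 0.18. KO 5 and NTC 1 were also among the 3 tumors with the highest pan-leukocyte sum, and the part of leukocyte RNA in these levels was not tested.

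Replication-dependent histones were the last list. Their transcripts lack a poly(A) tail, so their counts depend on how the library selects RNA. The methods name kits for mRNA and for small RNA, without saying which was used for these tumors. Of 60 histone genes 50 were tested, and 3 were higher and 0 lower at an unadjusted p under 0.05, beside 3.99% and 4.85% of all genes. The median was 0.13, from *H3c10* at 1.21 to *H2bc4* at -0.19. Over the 9 tumors 2 of 51 were higher (*H3c2* and *Hist1h4m*) and 0 lower, beside 12% and 8.1% of all genes. The median was then -0.06, with 28 of 51 genes below 0, beside 51.9% of all genes. The sign of this list thus turned with NTC 1.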

How the data were processed

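Read counts per gene were available for 10 tumors, 5 KO and 5 NTC, grouped by the sample titles. According to the labels and methods, the authors checked reads with FastQC, trimmed them with Trimmomatic, aligned them to mm10 with HISAT2, counted them per gene with HTSeq and deposited raw counts, without normalization. The annotation and the strand setting are not given in the sources used here. Rows that name no gene held 35.3 to 64.1% of the reads in a file and were left out. The 107 symbols on more than 1 row were kept apart.

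KO was tested against NTC with the quasi-likelihood test of edgeR 4.0.16 in R 4.3.3 across all genes past filterByExpr, with TMM normalization, over all 10 tumors and over 9 without NTC 1. A gene was called when its log2 fold change exceeded 1 in size and its p, adjusted by Benjamini-Hochberg, was under 0.05. The size of a log2 fold change over the root of its F statistic gave the standard error, and 95% intervals use the t distribution of the fit. CPM were scaled by the TMM factors of all 10 tumors, and log2 CPM used a prior count of 2. Levels per kb used exon lengths joined over all transcripts of a gene in GENCODE M21 (GRCm38), possibly another annotation than the authors used. The mean of Mcm or phase genes was compared within tumors with no test. With at least 78 reads per gene and tumor, the spread between tumors, which the labels call biological replicates, sets the errors. Same-numbered KO and NTC tumors deviated together in only some cases, with correlations from -0.287 to 0.633 across genes, so the numbers were not taken as pairs.

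The 40 genes, the pathway lists and the marker lists were chosen with earlier results of these data known. The Mcm2-7 genes, any member with an unadjusted p under 0.05 and the highest and lowest member of each phase group are named. So are the highest and lowest gene of each pathway list over all 10 tumors. *Mcm3*, *Mcm4*, *Mcm5* and most of these pathway genes are given without values per tumor. Other genes are given in short form, some of them chosen after their values were seen. Alternatives were DESeq2 1.42.0, RLE or no scaling factors, no low-count filter or a minimum of 10 counts per tumor, robust dispersion, a block for replicate number, leukocyte and melanoma scores as covariates, no fold threshold, another prior count of 0.5, summed counts and each tumor left out in turn. Scaling on melanoma genes was chosen after seeing the data. The fits were tested on simulated data. Tables and figures were made with Python 3.11.15, pandas 2.3.3, numpy 2.4.6 and matplotlib 3.10.9.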

Additional observations from a re-analysis of the deposited data

Results flagged for a closer look

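Dixon's test for a value far from the other 4 of its group was applied to the members, their sums and ratios and the library totals, 114 times in all, of which chance alone would flag about 1 in 20. It flagged 4. *Pcna* was 292 CPM in NTC 2, against 191 to 216 CPM in the other NTC tumors. *E2f1* was 31.3 CPM in KO 4, against 21.03 to 23.2 CPM in the other KO tumors. Mitotic reads were 19.2% of the reads on melanoma markers in KO 4, against 13.7 to 14.6% in the other KO tumors. NTC 1 held 11896643 reads on genes, against 24145795 to 28682130 in the other NTC tumors.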

How the results depend on the processing

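No member was called under any alternative or with any tumor left out, in either set of tumors. The replicate block gave 2 members with an unadjusted p under 0.05 (*Kif11* and *Cenpe*) over all 10 tumors and 0 over 9, and 1 called gene in all in each set, against 3 and 17; among KO tumors 1 to 5, 2 correlated best with the NTC tumor of their own number. The number of members with an unadjusted p under 0.05 was otherwise 4 and 4 (10 and 9 tumors) with the leukocyte covariate, 2 and 2 with the melanoma covariate, 2 and 3 with melanoma scaling, and 2 over 9 tumors with no filter. Leaving out 1 tumor gave 0 to 3 over all 10 tumors and 0 to 9 over 9, the highest without KO 4 each time. The 9 were all mitotic genes (*Ccnb2*, *Aurkb*, *Bub1*, *Bub1b*, *Plk1*, *Kif20a*, *Tpx2*, *Cenpe* and *Cenpf*). In that fit 39 of the 40 members were below 0. The share of all genes at that p was 8.85% and 20.1% in the main fits. It is not given here for the alternatives, so these counts of members have no background beside them. The S phase median over 9 tumors became 0.18 with the leukocyte covariate. Left out in turn, KO 1, KO 5 or NTC 2 brought the S phase median over all 10 tumors from -0.08 to 0.00, 0.03 and 0.03, and without KO 5 or NTC 2 the mitotic median was 0.02 and 0.00. Without KO 4 the medians were -0.19 (S phase) and -0.31 (mitotic), without KO 3 -0.17 and -0.15, without KO 1 the mitotic median was -0.04, and without NTC 4 the S phase median was -0.04. Over 9 tumors the medians were -0.34 and -0.43 without KO 4, -0.09 and -0.11 without KO 5, and -0.11 and -0.15 without NTC 2, and the S phase median was -0.10 without KO 1. Over all genes, 1 to 96 were called over 10 tumors and 1 to 636 over 9, the highest with DESeq2, with which no member was called.

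The cause was not tested where a sign turned over all 10 tumors. None of these values had an adjusted p under 0.05. With total counts, *Mcm3* was 0.0033 and *Mcm5* 0.028, and with the block *Incenp* was -0.0014. With the leukocyte covariate, *Mcm3* was 0.24, *Mcm4* 0.062, *Mcm5* 0.22, *Mcm6* 0.18, *Mcm7* 0.12, *Ccne1* 0.017, *Bub1* 0.017, *Dbf4* 0.023, *H2bc4* 0.059 and *Cdkn1a* -0.15. With the melanoma covariate, *Mcm3* was 0.061, *Mcm5* 0.034, *Mcm6* 0.026 and *Cdkn1a* -0.0067. With melanoma scaling, *Mcm3* was 0.16, *Mcm4* 0.078, *Mcm5* 0.14, *Mcm6* 0.14, *Mcm7* 0.050, *Ccne1* 0.079 and *Dbf4* 0.0076. Leaving out 1 tumor, the range was -0.028 to 0.27 for *Mcm2*, -0.21 to 0.066 for *Mcm3*, -0.18 to 0.11 for *Mcm5*, -0.22 to 0.028 for *Mcm6*, -0.11 to 0.088 for *Incenp*, -0.015 to 0.17 for *Sesn2* and -0.050 to 0.34 for *Cdkn1a*. The *Mcm7* ratio stayed between -0.15 and -0.090 and the S phase minus mitotic difference between 0.035 and 0.099 with any 1 tumor left out.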
